A study of Mus musculus with 4 samples.

Results

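The 9 genes described here encode the surface receptors and counter-receptors with which myeloid cells hold on to vessel walls, to matrix and to each other. They were chosen by name, by a rule that uses no measured value but with earlier results of these data known, and are 9 of the 28585 genes listed. They comprise the integrin alpha chains *Itgam*, *Itgal*, *Itgax* and *Itga4*, the integrin beta chain *Itgb2*, the selectin ligand *Selplg*, the immunoglobulin-type molecules *Icam1* and *Pecam1*, and the hyaluronan receptor *Cd44*. All 9 passed the filter on low values, a mean of at least 0.1 FPKM. FPKM divide the fragments of a gene by its transcript length and by the depth of the library, so levels of different genes are compared per length.

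The samples were 4 bulk RNA sequencing libraries of PMN-MDSCs (myeloid-derived suppressor cells of the polymorphonuclear kind), neutrophil-like cells that restrain T cells, from the spleens of C57BL/6J mouse pups on postnatal day 7. The 2 Dhps cko libraries came from pups in which a floxed *Dhps*, the gene of deoxyhypusine synthase, is deleted by Cre expressed from the *Lysm* locus. The 2 Dhps flox libraries came from pups that carry the floxed gene without that Cre. The paper calls the pups of both genotypes littermates, and which libraries shared a litter is not stated. Both groups were untreated, and each library was made from 300000 cells. *Lysm* Cre acts in neutrophils, monocytes and macrophages rather than in 1 cell type. The cells were defined as CD11b+ Ly6C lo/- Ly6G+, so CD11b, the protein of *Itgam*, and Ly6G, the protein of *Ly6g*, were part of the gate. Whether the replicates came from separate pups or from pooled pups is not stated, and p-values then measure only the spread between these samples, which may be technical.

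Neutrophils leave the blood in steps. P-selectin glycoprotein ligand-1 on the cell (PSGL-1, from *Selplg*) binds selectins on the endothelium and lets the cell roll, and the beta2 integrins LFA-1 (*Itgal* with *Itgb2*) and Mac-1 (*Itgam* with *Itgb2*) then bind ICAM-1 and arrest it. An integrin is a pair of 1 alpha and 1 beta chain, and it binds firmly only after signals from inside the cell, through talin and kindlin-3, have changed its shape. Mac-1 also takes up complement-coated particles, alpha4 with beta1 binds VCAM-1, PECAM-1 takes part in the passage between endothelial cells, and CD44 holds hyaluronan.

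The FPKM of the libraries summed to between 304281 and 319286, and between 10611 and 10729 genes reached 1 FPKM. Steps between the low values of short single-exon genes gave approximate depths of 29900000 to 32050000 fragments. *Dhps* was at 2.38 and 2.59 FPKM in Dhps cko and 3.57 and 3.11 FPKM in Dhps flox, a log2 fold change of -0.41 (SE 0.13, limma adjusted p = 0.63), so the targeted gene was lower without overlap but did not pass the test. The summed FPKM of 4 Y-linked genes was 7.07 and 8.07 in Dhps cko and 17.64 and 15.62 in Dhps flox. *Xist* was at 27.54 and 20.27 FPKM against 16.25 and 17.17 FPKM. Every library thus held both Y-linked and *Xist* RNA, as a pool of female and male pups would, although pooling is not stated. The sex make-up of the libraries and the genotype cannot be told apart.

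The comparison of Dhps cko with Dhps flox asks whether loss of *Dhps* in myeloid cells changes the RNA of these adhesion genes. None of the 9 changed by limma at an adjusted p under 0.05. Across all 17948 genes tested, 1 gene (0.00557%) passed that threshold. At an unadjusted p under 0.05, *Icam1* alone among the 9 differed, and it was higher in Dhps cko, where 7.0% of all genes tested passed in either direction and 4.72% were higher. *Icam1*, *Itgax* and *Selplg* were higher in both Dhps cko libraries than in both Dhps flox libraries, and no member was lower without overlap. Over all genes tested, 36.0% had no overlap, 20.0% with Dhps cko higher and 16.0% with Dhps cko lower. The median log2 fold change of the 9 was 0.01, and that of all genes tested was also 0.01. Of the genes with an unadjusted p under 0.05, 67.4% were higher in Dhps cko, and 56.2% after scaling to a common FPKM sum (TPM). Without Dhps cko replicate 1 the share was 49.9%.

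**Figure D1:**
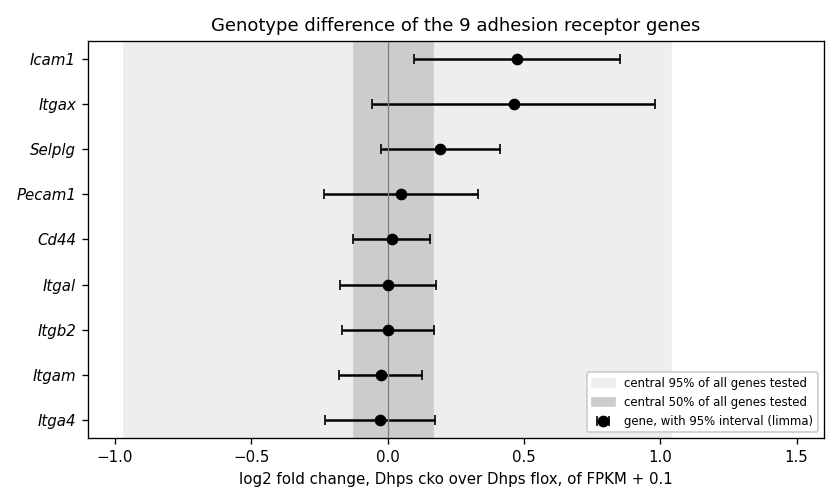
Log2 fold change of FPKM + 0.1, Dhps cko over Dhps flox, on the x axis for each of the 9 genes, with points for the limma estimates, bars for their 95% intervals, and grey bands for the central 50% and 95% of all genes tested. *Icam1* (0.47) and *Itgax* (0.46) lie farthest from 0, *Selplg* is at 0.19, and the other 6 lie between -0.03 and 0.05.

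The genes fell into levels that spanned more than 2 orders of magnitude. *Itgb2* and *Itgam* were the most abundant, with means over the 4 libraries of 583.6 and 577.9 FPKM, and *Itgam* ranked between 43 and 46 of all genes listed. *Cd44* at 134.0 FPKM and *Itgal* at 131.5 FPKM came next, followed by *Selplg* at 47.2 FPKM and *Itga4* at 12.97 FPKM. *Pecam1* at 2.96 FPKM, *Itgax* at 2.66 FPKM and *Icam1* at 1.96 FPKM were lowest. The library ranges of *Itgb2* and *Itgam* overlapped, as did those of *Cd44* and *Itgal* and of *Pecam1* and *Itgax*, so these neighbours were not separated beyond the spread of their libraries. *Itgax* was above *Icam1* in each of the 4 libraries, although their ranges across libraries overlapped. The other steps ranged from 2.78-fold between *Itgal* and *Selplg* to 4.38-fold between *Itga4* and *Pecam1*, with no overlap. No library stood at one end for all genes. Dhps flox replicate 2 was the highest library for 4 genes (*Itgam*, *Itgal*, *Itgb2* and *Itga4*), and Dhps flox replicate 1 was the lowest for 5.

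**Figure D2:**
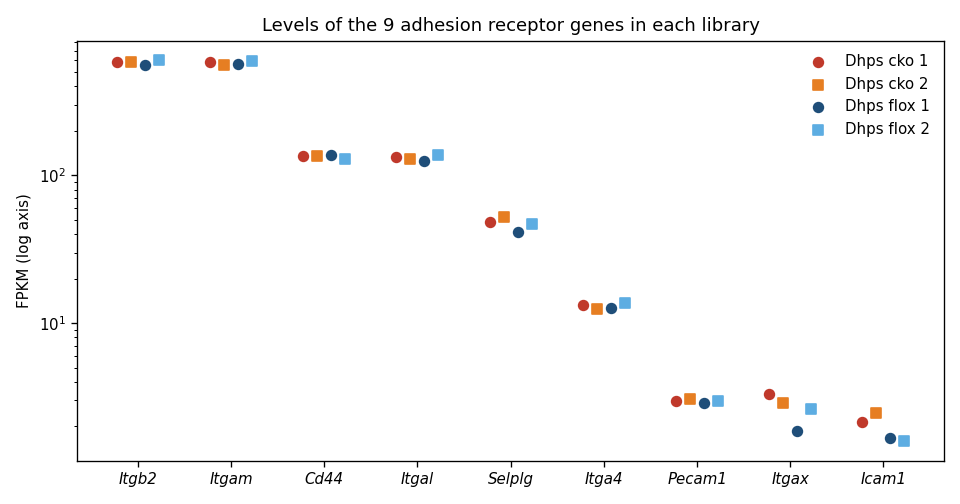
FPKM of each gene in each library on a log axis, with genes ordered from the most to the least abundant, circles for replicate 1 and squares for replicate 2. The 4 libraries lie almost on top of each other from *Itgb2* (583.6 FPKM on average) to *Itga4* (12.97 FPKM), and spread most for *Itgax*, whose highest library was 1.78 times its lowest.

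Of the 9 genes, those of the beta2 integrins had the highest summed level per length. *Itgb2* (ENSMUSG00000000290, chr10:77530252-77565708, plus strand, GENCODE M21 on GRCm38) encodes the chain that every beta2 integrin needs. It was at 584.94 and 582.43 FPKM in Dhps cko and at 559.59 and 607.58 FPKM in Dhps flox. Both Dhps cko libraries lay between the Dhps flox libraries. The means were 583.68 ± 1.77 and 583.59 ± 33.9 (SD, n = 2 each). The log2 fold change was 0.00 (SE 0.066, limma adjusted p = 0.999), with a 95% interval of 89.0% to 112.6% of the Dhps flox level.

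*Itgam* encodes the alpha chain of Mac-1, CD11b, whose protein was used to gate the cells. It was at 582.36 and 562.98 FPKM in Dhps cko and at 570.85 and 595.31 FPKM in Dhps flox. The genotypes overlapped, and the log2 fold change was -0.03 (SE 0.059, limma adjusted p = 0.96), with a 95% interval of 88.3% to 109.2%. The gene lies at chr7:128062640-128118491 (plus strand), and 68.7% of its exon bases are shared with *Gm49368*, a gene model on the same strand. *Gm49368* was at 2.64, 3.17, 1.37 and 2.93 FPKM in Dhps cko 1 and 2 and Dhps flox 1 and 2, between 0.240% and 0.563% of *Itgam*. How reads were divided between the models is not stated.

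*Itgal* (chr7:127296260-127335138, plus strand) encodes the alpha chain of LFA-1, the integrin that arrests leukocytes on ICAM-1. It was at 134.18 and 128.86 FPKM in Dhps cko and at 125.07 and 137.7 FPKM in Dhps flox. Here too the Dhps cko libraries lay between the Dhps flox libraries, with a log2 fold change of 0.00 (SE 0.068, limma adjusted p = 0.997) and a 95% interval of 88.7% to 113.2%.

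*Itgax* encodes CD11c, the alpha chain of complement receptor 4, best known from dendritic cells and some macrophages. It was at 3.3 and 2.87 FPKM in Dhps cko and at 1.85 and 2.63 FPKM in Dhps flox. Both Dhps cko libraries were above both Dhps flox libraries. The means were 3.085 ± 0.304 and 2.24 ± 0.552 FPKM (SD, n = 2 each), or 137.7% of the Dhps flox mean. The log2 fold change was 0.46 (SE 0.20, limma unadjusted p = 0.070, adjusted p = 0.75), and its 95% interval of -0.06 to 0.98 includes 0. The value depended on which Dhps flox library was kept, since it was 0.22 without Dhps flox replicate 1 and 0.70 without Dhps flox replicate 2. The approximate fragments behind the gene, counted at its longest transcript and from the rough depths above, were 230 to 428 per library. At these numbers the counting SD would be 4.83% to 6.59%.

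*Itgam*, *Itgax* and the related *Itgad* lie in 1 cluster on chromosome 7, with *Itgax* 11.1 kb after *Itgam* and *Itgad* 3.7 kb after *Itgax*. *Itgal* lies 727.5 kb before *Itgam*. *Itgad*, the alpha D chain, was at 9.32 and 9.45 FPKM in Dhps cko and at 7.57 and 8.69 FPKM in Dhps flox, above *Itgax* in every library. It too was higher in both Dhps cko libraries, with a log2 fold change of 0.21 (limma adjusted p = 0.76), which was 0.11 without Dhps flox replicate 1 and 0.31 without Dhps flox replicate 2.

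To set the alpha chains against their shared partner without scaling between libraries, each was divided by *Itgb2* within its library. For *Itgam* the ratio was 0.996 and 0.967 in Dhps cko and 1.02 and 0.980 in Dhps flox, and for *Itgal* it was 0.229 and 0.221 against 0.224 and 0.227. Both ratios overlapped between genotypes (two-sided exact permutation p = 0.667 and p = 1). For *Itgax* the ratio was 0.00564 and 0.00493 in Dhps cko and 0.00331 and 0.00433 in Dhps flox, without overlap, at p = 0.333, the smallest the exact permutation test can give with 2 libraries against 2. The 3 alpha chains summed to 719.84 and 694.71 FPKM in Dhps cko and 697.77 and 735.64 FPKM in Dhps flox (two-sided exact permutation p = 0.667). *Itgam* made up 80.9% to 81.8% of that sum, *Itgal* 17.9% to 18.7%, and *Itgax* 0.265% to 0.458%.

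**Figure D3:**
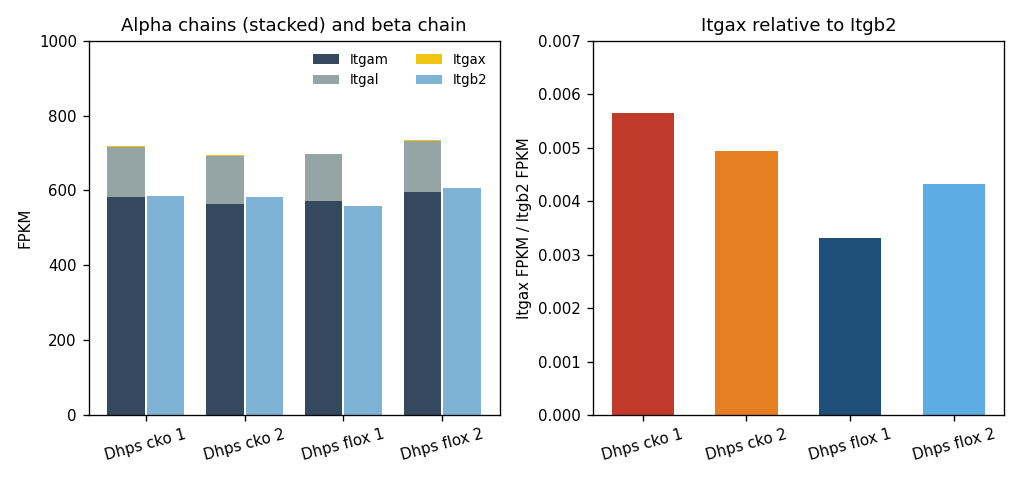
Left, FPKM of the alpha chains *Itgam*, *Itgal* and *Itgax*, stacked, beside the FPKM of *Itgb2* in each library. Right, FPKM of *Itgax* divided by that of *Itgb2*, from 0.00331 and 0.00433 in Dhps flox to 0.00493 and 0.00564 in Dhps cko, on an axis from 0.

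*Itga4* (chr2:79255426-79333123, plus strand) encodes the alpha chain of VLA-4, which binds VCAM-1. It was at 13.21 and 12.47 FPKM in Dhps cko and at 12.57 and 13.62 FPKM in Dhps flox. The libraries overlapped, with a log2 fold change of -0.03 (SE 0.078, limma adjusted p = 0.966). Of its exon bases, 8.04% overlap *Cerkl* on the other strand, which was listed at 0 in 3 libraries and at 0.03 in the other. *Itgb1*, the beta chain of VLA-4, was at 30.38 and 30.91 FPKM in Dhps cko and at 31.93 and 32.4 FPKM in Dhps flox, lower without overlap (log2 fold change -0.07, limma adjusted p = 0.83), and *Itga4* per *Itgb1* was 0.435 and 0.403 against 0.394 and 0.420.

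*Itgb7* encodes the beta chain that pairs with alpha4 to bind MAdCAM-1 of gut vessels. It was at 4.88 and 5.03 FPKM in Dhps cko and at 3.52 and 3.76 FPKM in Dhps flox. The Dhps cko libraries were both higher, with a log2 fold change of 0.44 (SE 0.098, limma unadjusted p = 0.0068, adjusted p = 0.51), the largest rise without overlap among the integrin chains outside the 9. *Madcam1* was listed at 0 in all 4 libraries.

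*Selplg* (chr5:113818536-113832644, minus strand) encodes PSGL-1, the main ligand of P-selectin. It was at 48.45 and 52.25 FPKM in Dhps cko and at 41.3 and 46.83 FPKM in Dhps flox. All Dhps cko values lay above the Dhps flox values, at 114.3% of their mean. The log2 fold change was 0.19 (SE 0.084, limma unadjusted p = 0.070, adjusted p = 0.75), with a 95% interval of 98.4% to 132.9%. Without Dhps flox replicate 1 it was 0.10.

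*Icam1* encodes the counter-receptor of LFA-1 and Mac-1 and is known to be induced by NF-kB and interferon signals. It was at 2.13 and 2.46 FPKM in Dhps cko and at 1.66 and 1.58 FPKM in Dhps flox. Both Dhps cko libraries were higher, with means of 2.295 ± 0.233 and 1.62 ± 0.0566 FPKM (SD, n = 2 each), or 141.7% of the Dhps flox mean. The log2 fold change was 0.47 (SE 0.146, limma unadjusted p = 0.023, adjusted p = 0.63), with a 95% interval of 107% to 180%, before adjustment over all genes. The estimate ran from 0.33 to 0.57 over all alternatives. From the same rough depths, about 120 to 194 fragments per library lay behind the gene, for a counting SD of 7.18% to 9.14%. The gene lies at chr9:21015985-21028817 (plus strand), and 11.7% of its exon bases overlap *Gm47079* on the other strand, listed at 0 in 3 libraries and at 0.02 in the other. The unadjusted limma p of *Icam1* was 0.0433 without Dhps cko replicate 1, 0.107 without Dhps cko replicate 2, 0.075 without Dhps flox replicate 1 and 0.0956 without Dhps flox replicate 2, so leaving out 3 of the 4 libraries in turn took it past 0.05.

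The 250 bases before the transcription start of *Icam1* and *Itgax*, members without overlap for which a RefSeq promoter was at hand, and of *Itgam*, the abundant neighbour of *Itgax*, are shown 5′ to 3′ on the strand of the gene (RefSeq, GRCm38.p6). Capitals mark matches on either strand to GAGGAAG (PU.1-type), TTCNNNGAA (the STAT site GAS), GGAANTTCC (an NF-kB form), an ISRE-type motif, GGGCGG (Sp1-type) or TATAAA.
*Icam1*, chr9:21015690-21015939, plus strand: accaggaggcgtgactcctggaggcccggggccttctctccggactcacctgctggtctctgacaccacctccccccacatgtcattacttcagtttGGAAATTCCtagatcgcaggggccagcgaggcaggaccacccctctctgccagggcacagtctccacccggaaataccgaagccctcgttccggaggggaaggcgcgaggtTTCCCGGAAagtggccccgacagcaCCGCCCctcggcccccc
*Itgax*, chr7:128129300-128129549, plus strand: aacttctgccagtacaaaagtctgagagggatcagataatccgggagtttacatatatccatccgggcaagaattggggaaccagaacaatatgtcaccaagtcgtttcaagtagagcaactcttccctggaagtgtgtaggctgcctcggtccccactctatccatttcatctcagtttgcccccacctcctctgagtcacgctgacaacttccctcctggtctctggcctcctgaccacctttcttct
*Itgam*, chr7:128062390-128062639, plus strand: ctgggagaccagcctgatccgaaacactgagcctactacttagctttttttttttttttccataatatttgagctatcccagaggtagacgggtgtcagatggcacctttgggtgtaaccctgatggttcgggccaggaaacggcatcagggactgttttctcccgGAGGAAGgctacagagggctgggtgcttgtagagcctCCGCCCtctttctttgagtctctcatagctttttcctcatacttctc
The *Icam1* window held 1 match each to the NF-kB form, GAS and the Sp1-type motif, the *Itgam* window held a PU.1-type and an Sp1-type match, and the *Itgax* window held none of the 6. Over 32851 promoter windows of the same length, 0.813% held the NF-kB form, 7.02% GAS, 32.7% the Sp1-type motif and 10.6% the PU.1-type motif. GC content was 65.2% for *Icam1* and 49.6% for *Itgam*, beside a median of 52.4% over the windows. These matches are descriptions of sequence, and binding was not measured.

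*Pecam1* (chr11:106654217-106750628, minus strand) encodes PECAM-1, found on endothelium, platelets and leukocytes. It was at 2.96 and 3.07 FPKM in Dhps cko and at 2.86 and 2.96 FPKM in Dhps flox. Dhps cko 1 and Dhps flox 2 had the same value. The log2 fold change was 0.05 (SE 0.11, limma adjusted p = 0.96), with a 95% interval of 85.1% to 125.9%. Among the markers of endothelium, *Cdh5* was at no more than 0.15 FPKM and *Kdr* at no more than 0.07 FPKM in any library, while *Stab2* was at 1.36 to 1.53 FPKM. The 10 endothelial markers summed to 2.68 and 2.71 FPKM in Dhps cko and 2.18 and 2.29 FPKM in Dhps flox, and of the 7 tested 3 were higher without overlap and 1 had an unadjusted p under 0.05 by limma, beside 20.0% and 7.0% of all genes tested. Their part in the *Pecam1* level was not tested.

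*Cd44* (chr2:102811141-102901665, minus strand) encodes the receptor for hyaluronan and osteopontin. It was at 134.54 and 134.84 FPKM in Dhps cko and at 136.83 and 129.94 FPKM in Dhps flox. Its highest library was 1.05 times its lowest, the narrowest spread of the 9. The log2 fold change was 0.01 (SE 0.054, limma adjusted p = 0.977), with a 95% interval of 91.7% to 111.3%.

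Genes that work with the receptors were taken from 7 lists of 131 genes, of which 112 were tested. None passed an adjusted p under 0.05 by limma, where the smallest was 0.475, and 7 had an unadjusted p under 0.05, 3 higher and 4 lower in Dhps cko, beside 7.0% of all genes tested. That count of 7 was 4 without Dhps cko replicate 1, 2 without Dhps cko replicate 2, 8 without Dhps flox replicate 1, 13 without Dhps flox replicate 2 and 4 with the replicate number as a block. Without overlap, 20 were higher and 15 lower, beside 20.0% and 16.0% of all genes tested, so these counts were not above the shares over all genes. The median log2 fold change was 0.02. All 7 lists had a median between -0.07 and 0.05.

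Among the other integrin chains, 15 of 21 were tested and 1, *Itgb7*, had an unadjusted p under 0.05. Beside *Itgb7* and *Itgad*, *Itgb3* was higher without overlap, and *Itgb1*, *Itgav* and *Itga6* were lower. *Itgav*, an alpha chain of receptors for vitronectin and latent TGF-beta, was at 4.61 and 4.39 FPKM in Dhps cko and at 5.31 and 4.96 FPKM in Dhps flox. *Itga6*, an alpha chain of laminin receptors, was at 6.52 and 5.92 FPKM against 7.11 and 6.82 FPKM. Neither passed the adjusted test.

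Of the selectins, their ligands and the enzymes that add the sugars, 15 of 19 were tested and none had an unadjusted p under 0.05 by limma. *St3gal3*, a sialyltransferase, was at 2.41 and 2.19 FPKM in Dhps cko and at 1.92 and 2.17 FPKM in Dhps flox. *Glg1*, the gene of the E-selectin ligand ESL-1, was at 17.47 and 17.43 FPKM against 17.96 and 19.87 FPKM. Of the immunoglobulin-type and other adhesion molecules, 12 of the 17 measured were tested and again none had an unadjusted p under 0.05. *Ceacam1* was at 131.31 and 128.07 FPKM against 126.85 and 125.86 FPKM, and *Icam2* at 3.19 and 2.86 FPKM against 2.98 and 2.63 FPKM. *Vcam1*, the ligand of VLA-4 and a gene of splenic macrophages and stroma, overlapped at 18.41 and 20.5 FPKM against 19.31 and 16.04 FPKM. *Cd177*, a neutrophil surface protein that binds PECAM-1, was the most abundant gene of the list at 995.19 and 1016.6 FPKM against 971.94 and 1017.4 FPKM, and was named after its values were seen.

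The machinery that switches integrins on was tested at 19 of 21 genes, none with an unadjusted p under 0.05 by limma. *Tln1*, the gene of talin, was at 203.11 and 196.78 FPKM in Dhps cko and at 200.02 and 221.81 FPKM in Dhps flox. *Fermt3*, the gene of kindlin-3, was at 79.82 and 77.91 FPKM against 73.75 and 82.82 FPKM, and *Rap1b*, a small GTPase of integrin activation, at 160.18 and 178.16 FPKM against 178.77 and 159.82 FPKM. All of these overlapped. *Sharpin*, an inhibitor of integrin activation, was higher without overlap at 12.6 and 13.02 FPKM against 11.79 and 11.95 FPKM. *Fyb*, the gene of an adaptor that links T cell receptor signals to integrins, was lower without overlap at 47.6 and 47.18 FPKM against 49.08 and 49.34 FPKM.

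Signaling from bound integrins was tested at all 27 genes of its list, and 7 were higher and 3 lower without overlap, where 20.0% and 16.0% of all genes tested were. *Fcer1g* and *Tyrobp* encode ITAM adaptors that pass on signals from beta2 integrins in neutrophils and from many other myeloid receptors. *Fcer1g* was at 330.21 and 331.67 FPKM in Dhps cko and at 288.65 and 284.79 FPKM in Dhps flox (log2 fold change 0.21, limma unadjusted p = 0.010, adjusted p = 0.54). *Tyrobp* was at 425.62 and 424.74 FPKM against 376.46 and 350.19 FPKM (log2 fold change 0.23, limma unadjusted p = 0.014, adjusted p = 0.57). *Cbl*, a ubiquitin ligase that limits such signals, was at 63.17 and 57.93 FPKM against 68.55 and 69.64 FPKM (log2 fold change -0.19, limma unadjusted p = 0.031, adjusted p = 0.65). Both adaptors were higher and the ligase lower in every Dhps cko library, and none passed the adjusted test. *Vav3*, an exchange factor for small GTPases, was at 11.5 and 11.99 FPKM against 13.0 and 12.13 FPKM.

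Around *Cd44*, 12 of 13 genes of linkers, hyaluronan and osteopontin were tested, and the median log2 fold change was -0.07. *Spp1* encodes osteopontin, a ligand of CD44 and of several integrins. It was at 7.88 and 7.69 FPKM in Dhps cko and at 11.09 and 14.75 FPKM in Dhps flox, with a log2 fold change of -0.71 (SE 0.147, limma unadjusted p = 0.0049, adjusted p = 0.49). *Ezr* (ezrin), which ties CD44 to actin, was at 111.09 and 108.53 FPKM against 113.88 and 115.2 FPKM, and *Nf2* (merlin) at 3.85 and 3.67 FPKM against 3.27 and 3.59 FPKM.

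Proteases that cut adhesion molecules from the surface, and their inhibitors, were all tested, 12 of 12. *Timp1*, an inhibitor of metalloproteinases, was at 1.65 and 1.38 FPKM in Dhps cko and at 3.04 and 4.33 FPKM in Dhps flox. Its log2 fold change of -1.21 (SE 0.21, limma unadjusted p = 0.0023, adjusted p = 0.475) was the largest among the named genes of the 7 lists. *Mmp25*, a membrane-bound metalloproteinase of neutrophils, was at 64.14 and 61.65 FPKM against 73.91 and 77.59 FPKM (log2 fold change -0.27, limma unadjusted p = 0.0056, adjusted p = 0.50). *Adam17*, a protease that sheds many surface proteins, overlapped at 8.87 and 9.24 FPKM against 8.92 and 9.21 FPKM.

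**Figure D4:**
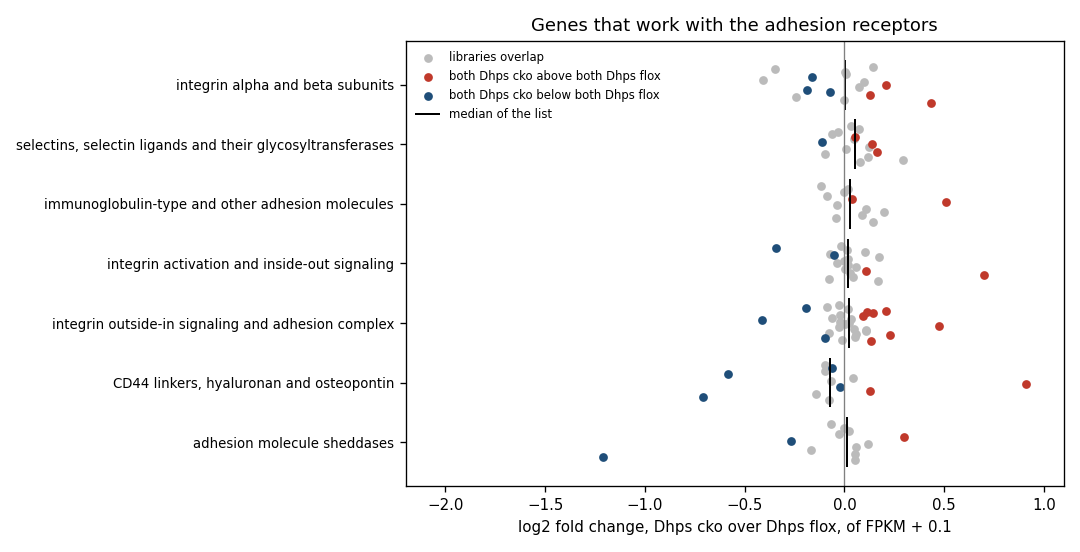
Log2 fold change of FPKM + 0.1, Dhps cko over Dhps flox, on the x axis for the 112 tested genes of the 7 lists, 1 row per list, with colour for genes whose libraries do not overlap and a black bar at the median of each list. The medians stay between -0.07 and 0.05, and *Timp1* lies farthest to the left at -1.21.

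Markers of neutrophils and of other cells of the spleen were measured beside these values. The gate, CD11b+ Ly6C lo/- Ly6G+, would remove lymphocytes, endothelial cells, erythroid cells, Ly6C-high monocytes, and macrophages and dendritic cells that lack Ly6G. The 12 neutrophil markers summed to 79163 and 81660 FPKM in Dhps cko and 78919 and 74475 FPKM in Dhps flox, led by *Ngp*, with 5 of the 12 higher without overlap, 0 lower, and a median log2 fold change of 0.11. *Ly6g*, whose protein was in the gate, was at 222.16 and 241.58 FPKM against 194.95 and 184.8 FPKM (log2 fold change 0.29, limma adjusted p = 0.53). The neutrophil sum was more than 2 orders of magnitude above that of every other list. *Csf3r* was at 224.79 and 218.72 FPKM against 195.03 and 215.15 FPKM. The 5 primary granule markers summed to 81.25 and 54.51 FPKM against 46.28 and 56.53 FPKM, with the genotypes overlapping. All 5 had a log2 fold change above 0, with a median of 0.55. Of them, 1 was higher without overlap, beside 20.0% of all genes tested, and 0 had an unadjusted p under 0.05 by limma.

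Marker sums of several other cell types were above both Dhps flox libraries in both Dhps cko libraries. Over all genes tested, 20.0% were higher without overlap and 4.72% were higher at an unadjusted p under 0.05. The 12 monocyte and macrophage markers summed to 398.65 and 391.43 FPKM against 323.16 and 326.76 FPKM. Of these, 9 were higher without overlap and 6 had an unadjusted p under 0.05. A large part of the sum was *Ly6c2*, at 192.22 and 183.75 FPKM against 157.95 and 160.82 FPKM. *Csf1r* was at 39.95 and 38.28 FPKM against 34.6 and 37.8 FPKM. The 8 B cell markers summed to 65.43 and 67.97 FPKM against 41.51 and 51.06 FPKM, 7 without overlap and 5 at an unadjusted p under 0.05, led by *Ighm*. The 8 dendritic cell markers summed to 3.18 and 3.06 FPKM against 2.03 and 2.35 FPKM. Of the 6 tested, 4 were higher without overlap and 0 had an unadjusted p under 0.05. *Clec9a*, the most abundant, overlapped at 1.04 and 0.93 FPKM against 0.93 and 0.94 FPKM. *Flt3*, close to the filter of 0.1 FPKM, was at 0.19 and 0.2 FPKM against 0.12 and 0.08 FPKM. These lists were higher in the same libraries as *Icam1*, *Itgax*, *Selplg*, *Itgb7*, *Fcer1g* and *Tyrobp*, genes that such cells also express, and their part in those values was not tested.

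The 8 T cell markers summed to 18.47 and 14.98 FPKM against 11.86 and 8.01 FPKM, 5 without overlap and 3 at an unadjusted p under 0.05, against the same shares over all genes of 20.0% and 4.72%. *Trbc2*, the most abundant, was at 8.25 and 5.36 FPKM against 3.57 and 1.51 FPKM (log2 fold change 1.47, limma unadjusted p = 0.020, adjusted p = 0.61), while *Cd3e* overlapped at 0.25 and 0.15 FPKM against 0.2 and 0.15 FPKM. The 6 eosinophil markers summed to 96.98 and 92.18 FPKM against 79.28 and 81.4 FPKM, 4 without overlap and 2 at an unadjusted p under 0.05. Most of that sum was *Ear2*, at 84.92 and 81.68 FPKM against 70.94 and 72.62 FPKM. The 6 NK cell markers summed to between 2.25 and 3.15 FPKM, with *Ncr1*, *Klrb1c* and *Eomes* at 0 in at least 1 library. Of the endothelial markers, given with *Pecam1*, *Emcn* was at 0 in 2 libraries. Platelet markers, 8 genes, summed to between 3.32 and 6.18 FPKM, with *Pf4* highest in Dhps flox 2 at 1.58 FPKM and *Gp6* at 0 in 3 libraries. The 8 erythroid markers summed to between 270.54 and 407.67 FPKM, with the genotypes overlapping. In bulk samples, fewer cells of a type and less RNA per cell cannot be told apart.

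**Figure D5:**
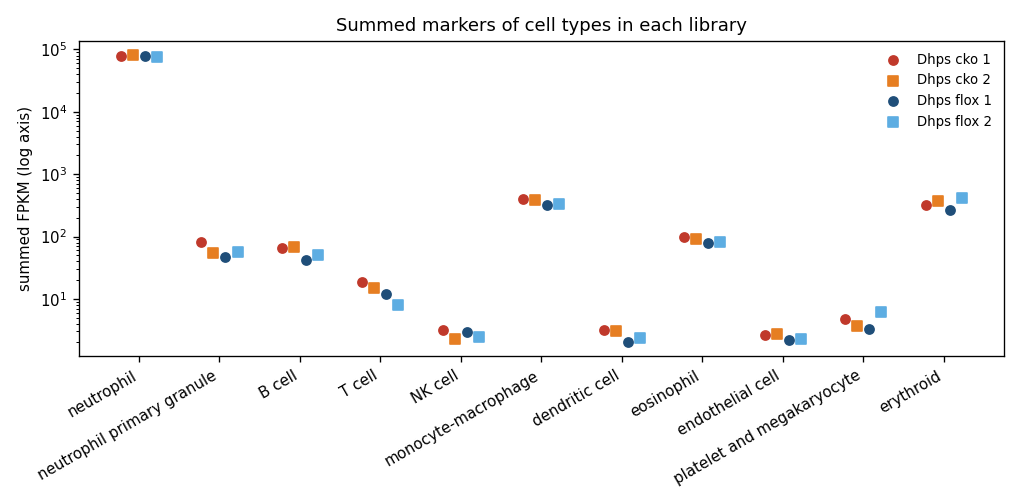
Summed FPKM of the markers of 11 cell types in each library on a log axis, with circles for replicate 1 and squares for replicate 2. Neutrophil markers lie between 74475 and 81660 FPKM in the 4 libraries, and the neutrophil, monocyte-macrophage, B cell, T cell, dendritic cell, eosinophil and endothelial sums are higher in both Dhps cko libraries than in both Dhps flox libraries.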

How the data were processed

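Splenic PMN-MDSCs of postnatal day 7 pups, 2 Dhps cko and 2 Dhps flox libraries, were compared. The authors trimmed reads with Cutadapt 1.9, aligned them with HISAT2 2.2.1 (mm10 per the submitters' processing notes) and computed FPKM per gene with StringTie 2.1.6 and ballgown. The FPKM were used as deposited by the authors. The annotation and the use of strand are not given in the sources used here. FPKM are relative, so a few abundant genes taking more fragments lower all others. Near-whole steps were found for 38.9% to 41.8% of low values (within 0.15 of a step, 30% by chance), so whole reads were not recovered and count tests were not run.

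The 17948 genes averaging 0.1 FPKM or more were compared on log2(FPKM + 0.1) with limma 3.58.1 (R 4.3.3, lmFit, eBayes with trend), no replicate block, Benjamini-Hochberg over all genes, threshold 0.05. A fold change on this scale understates low genes. The fit was tested on simulated data. Ratios were compared with exact permutation tests in Python 3.11.15 with scipy 1.17.1. Intervals are 95% and counting SDs cover counting error only. Identifiers were matched to GENCODE M21 (28511 matched, 74 did not), and 5 of the 9 members to RefSeq promoters.

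The members and lists were chosen with earlier results of these data known. Named genes were the members, *Dhps*, *Icam2*, *Itgb1*, *Itgb7*, *Vcam1*, *Tln1*, *Fermt3*, *Rap1b*, *Adam17*, any list gene past the threshold, and up to 2 list genes per direction with the largest change among those averaging 1 FPKM or more whose genotypes did not overlap. *Cd177* and *Itgb3*, and the overlapping genes *Gm49368*, *Gm47079* and *Cerkl*, were added after values or overlaps were seen. Some genes that the rule names are not reported here. Named markers were the most abundant of each list and 9 by name. A planned description of protein features was not run. Alternatives were pseudocounts of 0.01 and 1, filters, scalings, no trend, a replicate block, and leaving out each library.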

Additional observations from a re-analysis of the deposited data

How the results depend on the processing

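No member and no list gene had an adjusted p under 0.05 in any of the 13 alternative fits. Over all genes, 1 gene passed in the reported fit, 0 with a pseudocount of 0.01, with all genes above 0 or with the replicate block, 2 after quantile scaling, 4 with a filter at 1 FPKM, and 0 to 0 with any library left out. Deviations of same-numbered libraries correlated at -0.0567 over 10629 genes. With 1 replicate difference per genotype, this cannot show whether same-numbered libraries shared a litter or a sort. With the block, 4 list genes (7 without it) and 1082 genes overall (1257 without it) had an unadjusted p under 0.05 by limma. *Icam1*, *Itgax* and *Selplg* stayed higher in Dhps cko in every alternative. Among the members, 16 of 117 fold changes reversed, and among the other named genes 14 of 377; the reversed values lay between -0.077 and 0.080. Scaling by TPM gave log2 fold changes of -0.029 (*Itgal*), -0.031 (*Itgb2*), -0.018 (*Cd44*), -0.016 (*Cd177*) and -0.019 (*Fermt3*). Size factors gave -0.0091 (*Itgal*) and -0.011 (*Itgb2*). Quantiles gave -0.054 (*Itgal*), -0.077 (*Itgb2*), -0.024 (*Cd44*), 0.00090 (*Adam17*), -0.047 (*Cd177*), -0.012 (*Ceacam1*) and -0.038 (*Fermt3*), a members' median of -0.024, and an *Itgam* to *Itgb2* ratio difference of 0.026. With each library left out, log2 fold changes ran from -0.056 to 0.0044 (*Itgam*), -0.066 to 0.072 (*Itgal*), -0.058 to 0.061 (*Itgb2*), -0.085 to 0.030 (*Itga4*), -0.023 to 0.052 (*Cd44*), -0.031 to 0.027 (*Adam17*), -0.016 to 0.049 (*Cd177*), -0.071 to 0.097 (*Fermt3*), -0.082 to 0.080 (*Rap1b*) and -0.018 to 1.03 (*Gm49368*). The members' median ran from 0.016 to 0.072, the difference (Dhps cko minus Dhps flox) of the ratio to *Itgb2* from -0.039 to 0.0013 for *Itgam*, from -0.0038 to 0.0043 for *Itgal* and from 0.00096 to 0.0020 for *Itgax*, and that of the summed alpha chains from -28.4 to 9.51 FPKM. From 0 to 2 members had an unadjusted p under 0.05, the 2 being *Itgax* and *Selplg* without Dhps flox replicate 2. The cause of these shifts was not tested. With 2 libraries a genotype, the width of the intervals limits what could be seen.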
